A study of Mus musculus with 16 samples.

Results

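The comparison described here sets mouse embryonic stem cells with the point mutation H730A in Uhrf1 against cells with a knockout of Uhrf1, and covers 8 of the 16 libraries of the series. Members were chosen by sample title, 4 libraries titled H730A and 4 titled Uhrf1 KO. Both groups are J1 (129S4/SvJae) cells grown in serum medium with LIF and 2i, a pair of kinase inhibitors, so strain and medium are shared. The other 8 libraries are wild-type J1 cells (wtJ1) and the point mutant F46A. Each library is a bisulfite PCR amplicon of LINE1 elements from genomic DNA, in which unmethylated C is read as T. The libraries are described as biological quadruplicates, but whether a genotype was 1 clone or several, and whether each library had its own culture, is a point on which no source used here gives an answer. A p-value here measures no more than counting error and the spread between these samples, and that spread may be technical.

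UHRF1 is a partner of the maintenance DNA methyltransferase DNMT1. It binds hemimethylated DNA behind the replication fork, and the E3 ligase activity of its RING domain adds ubiquitin to histone H3, a mark that DNMT1 reads when it restores methylation to the new strand. H730A changes a residue of the RING domain, whereas the knockout lacks the protein. LINE1 elements are retrotransposons spread through the genome in very many near-identical copies, most of their CpG sites are methylated in differentiated cells, and they are used as a readout of methylation at many loci at once. The amplicon holds no transcript and no part of Uhrf1, so neither the stem cell label nor the genotypes could be checked in the reads.

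Library totals ran from 1049711 to 1287040 CpG calls. Of 46246 CpG sites listed in the 8 libraries, 10805 had at least 10 calls in every one and were tested, and these held 90.8% of the calls. Per library, tested sites had a median coverage of 55 to 70. PCR reads carry no molecular identifiers here, so intervals and counts cover no more than counting error and the spread between libraries. A run of tested sites on the same strand, with no gap over 200 bp, was treated as 1 LINE1 copy, which gave 799 copies with a median of 12 sites. Because the copies are near-identical, placing a value on 1 copy or 1 gene is uncertain. Positions are in mm10, genes are given by their span without exon, intron or UTR, and no batch is named in the labels.

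One library stood apart. H730A replicate 3 had the highest level of its group, and its methylated calls were distributed differently over the CpG positions of the amplicon. The chi-square test gave p at most 3.99e-144 for pairs with replicate 3 and at least 0.00127 for H730A pairs without it. That test counts every call as independent, which PCR reads may not be, so its p does not measure the size of a difference. By position, the level of replicate 3 was -0.165 to 2.86 points from the mean of the other H730A libraries. The level difference, the differences at several positions and the counts of calls are also given without replicate 3. No library was left out of the main comparisons.

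H730A cells kept more LINE1 methylation than the knockout. The level, which is methylated calls as a percentage of all calls at tested sites, was 4.89, 4.96, 5.04 and 4.89% in Uhrf1 KO replicates 1 to 4. In H730A replicates 1 to 4 it was 7.21, 7.48, 8.60 and 6.51%. The groups did not overlap, and the spread within H730A was far wider than that within the knockout. The means were 7.45% ± 0.872 and 4.95% ± 0.0706 (SD, n = 4), a difference of 2.50 percentage points (95% interval 1.47 to 3.71) or 1.51-fold. The exact two-sided permutation p was 0.0286, the smallest that 4 against 4 allows, and 0.0857 after adjustment over the 3 comparisons among mutant genotypes, which does not pass 0.05. Without H730A replicate 3 it was 2.12 points, a comparison of 3 against 4 in which the exact p cannot go below 0.0571. In wtJ1 the summed level was 24.8%, so both genotypes were far below wild type.

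**Figure D1:**
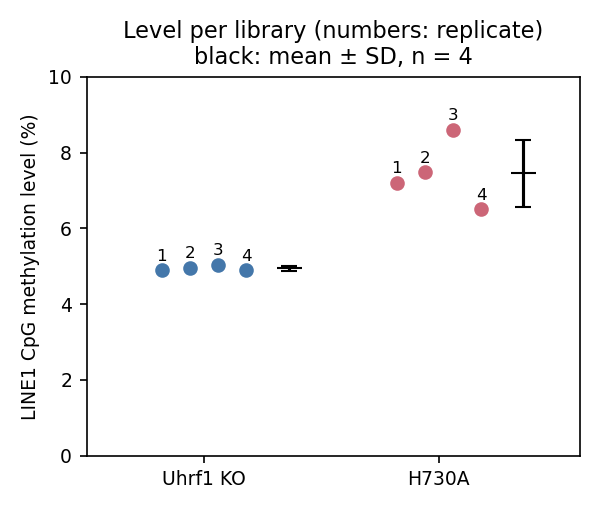
LINE1 CpG methylation level (percent of calls at tested sites) in each of the 4 Uhrf1 KO and 4 H730A libraries, numbered by replicate, with the group mean and SD in black. The knockout libraries lie between 4.89 and 5.04%, all below the H730A libraries, which spread from 6.51 to 8.60%.

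The excess over the knockout was uneven along the amplicon. CpG spacing was common to most copies, so 10675 of the 10805 sites could be placed on 1 template with 15 positions, numbered in bp along the called strand with the most upstream CpG as 1. H730A was higher than the knockout at 10 positions (66.7%) and lower at 2 (13.3%), with 0.0286 as the exact permutation p of each and 0.0357 after adjustment over 15 positions. The positions of 1 amplicon are read from the same molecules and are not independent of each other.

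Position 113 had the largest difference and the highest level of H730A. The knockout libraries were at 3.03, 3.09, 3.12 and 3.02%, and the H730A libraries at 13.8, 14.1, 14.8 and 12.5%. No H730A library came near the knockout, with means of 13.8% ± 0.935 and 3.07% ± 0.0509 (SD, n = 4) and a difference of 10.7 points (95% interval 9.40 to 11.7; exact permutation p = 0.0286). H730A was at 43.2% of the wtJ1 level at this CpG and the knockout at 9.62%. Replicate 3 was 1.29 points above the mean of the other H730A libraries here, little against the difference between genotypes.

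At positions 8 and 34 the knockout was nearly unmethylated and H730A was not. At position 8 the knockout libraries were at 1.04, 1.06, 1.18 and 1.11% and the H730A libraries at 7.67, 7.80, 7.75 and 6.83%. At position 34 the knockout libraries were at 0.928, 0.920, 0.979 and 0.922% and the H730A libraries at 6.12, 6.20, 6.22 and 5.31%. The differences were 6.42 points (95% interval 5.66 to 6.76) and 5.03 points (95% interval 4.34 to 5.30), or 6.85-fold and 6.36-fold. H730A replicate 3 lay close to the others at both, and replicate 4 was the lowest. At position 65 the knockout was at 2.40% ± 0.0584 and H730A at 7.56% ± 1.47 (SD, n = 4), a difference of 5.15 points. Replicate 3 was the highest there by far (9.68%, against 6.37 to 7.31% in the others), and the difference was 4.44 points without it.

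Smaller excesses were measured at 6 further positions. In the order 86, 18, 29, 103, 150 and 25 these positions had differences of 2.99, 2.45, 2.37, 2.02, 1.89 and 0.623 points. At position 25 the call was lost with a minimum of 30 calls, a minimum of 100 calls, sites covered in all 16 libraries, or copies that hold the template once (exact permutation p = 0.0571, adjusted p = 0.0667 to 0.0779). Without H730A replicate 3 the difference at position 25 was 0.379 points. At position 150 H730A replicate 3 was 2.19 points above the mean of the others, and the difference was 1.35 points without it. Position 1 was at or below 0.385% in every library and at 0.179% in wtJ1, so it had almost no methylation to compare.

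H730A lay below the knockout at positions 90 and 53. The knockout had kept methylation at both, but also at position 103 (mean 7.85%), where H730A was higher, and at position 49 (mean 9.28%), where no difference was called. At position 90 the knockout libraries were at 11.4, 11.6, 11.7 and 11.6% and the H730A libraries at 8.45, 8.83, 10.97 and 7.65%. Replicate 3 was close to the knockout there and the other 3 were well below it. The difference was -2.60 points (95% interval -4.07 to -0.458; exact permutation p = 0.0286), and -3.27 points without replicate 3. At position 53 the knockout libraries were at 8.47, 8.44, 8.63 and 8.44% and the H730A libraries at 7.97, 8.33, 7.76 and 7.46%, a difference of -0.616 points (95% interval -1.17 to -0.106). The call at position 53 was lost in copies that hold the template once, where the difference was -0.509 points (exact permutation p = 0.0857, adjusted p = 0.107).

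Positions 110 and 49 did not pass the test, and there the outlying library decided whether the groups overlapped. At position 110 the knockout libraries were at 7.44, 7.58, 7.76 and 7.42% and the H730A libraries at 5.64, 5.88, 8.38 and 5.06% (exact permutation p = 0.143, adjusted p = 0.165). At position 49 they were at 9.29, 9.23, 9.48 and 9.12% and at 8.83, 9.01, 11.04 and 7.77% (exact permutation p = 0.800). In both cases replicate 3 lay above the whole knockout group and the other 3 H730A libraries lay below it. Without replicate 3 the differences were -2.02 and -0.744 points, and the positions at which H730A lay wholly below the knockout numbered 4 instead of 2. Leaving out any other library left these counts at 10 above and 2 below.

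Relative to wild type the mutant profile was flatter than the knockout profile. Leaving out position 1, the knockout was at 4.68% (position 8) to 41.7% (position 53) of the wtJ1 level, and H730A at 17.3% (position 150) to 43.2% (position 113). These shares use the same wtJ1 levels for both genotypes and are given as a description.

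**Figure D2:**
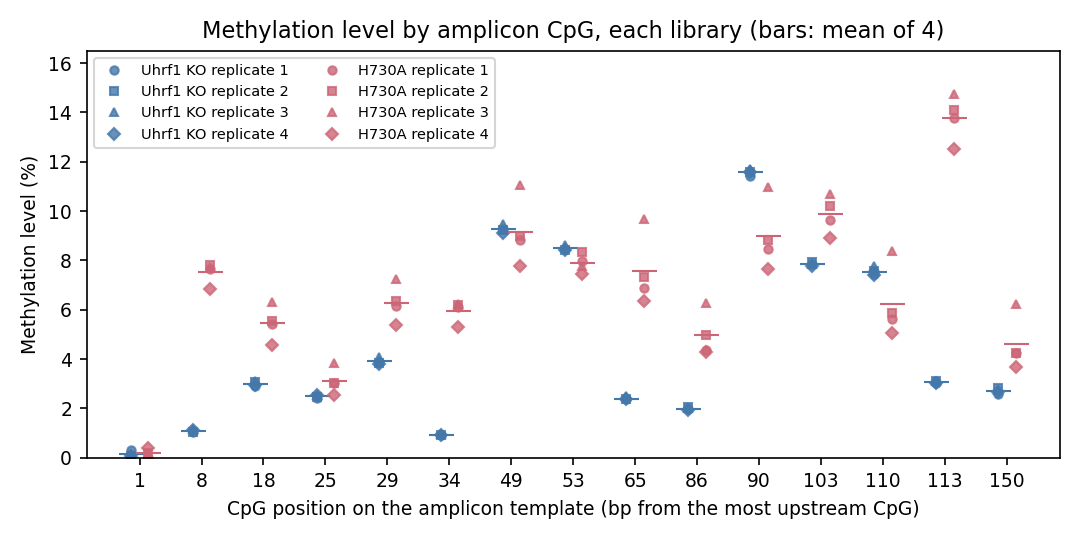
Methylation level (percent of calls) at each of the 15 CpG positions of the amplicon template in every library, with symbols for replicates and bars for group means. H730A lies far above the knockout at positions 8, 34, 65 and 113 and below it at position 90, where H730A replicate 3 (10.97%) is nearest to the knockout (11.4 to 11.7%).

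Single sites followed the same division. Of the 10805 sites, 7684 had a higher summed level in H730A, 3046 a lower one and 75 the same, with a median difference of 2.20 points and a 5th and 95th percentile of -4.20 and 11.9 points. H730A was more than 10 points above the knockout at 889 sites and more than 10 below at 39. It was more than 20 above at 56 and more than 20 below at 0. At an adjusted p under 0.05, 2081 sites were called higher (19.3%) and 70 lower (0.648%) by a quasi-binomial model per site whose dispersion was moderated with limma. All 4 H730A libraries lay above all 4 knockout libraries at 2545 sites (23.6%) and below them at 209 (1.93%).

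Sites called higher were nearly empty in the knockout. Their median level was 1.62% in Uhrf1 KO, 9.32% in H730A and 27.6% in wtJ1, against medians of 3.49, 7.02 and 25.0% over all tested sites. Sites called lower had a median of 12.8% in Uhrf1 KO, 5.94% in H730A and 26.7% in wtJ1. The model used these H730A and knockout values to make the calls, so they are a description, whereas the wtJ1 levels come from libraries it did not use. At 413 sites the knockout had 0 methylated calls among 48053, a set picked for that 0. H730A replicates 1 to 4 were at 5.96, 6.15, 6.43 and 5.14% over those sites, and 146 of them were called higher (35.4%, against 19.3% of all sites). In H730A 114 sites had 0 methylated calls, and 4 of these were called lower (3.51%, against 0.648% of all sites). Picking sites for a 0 in 1 genotype favours calls in that direction, so nothing is read from these shares.

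The calls concentrated at a few CpGs of the amplicon. Positions 8, 34, 65 and 113 held 1739 of the 2081 higher sites (83.6%) while making up 29.7% of the tested sites. At these positions 54.2% of sites were called higher, against 4.50% of all other sites. The 4 positions were picked because over 30% of their sites were called higher. A contrast with the other sites was therefore fixed by that choice, and these shares are a description. In the order 113, 8, 34 and 65 the share was 70.3, 58.9, 55.1 and 32.9%. Position 90 held 48 of the 70 lower sites (68.6%), which is 5.47% of the sites there, and 0 sites at position 90 were called higher. The count of lower sites was sensitive to single libraries. It was 19 without H730A replicate 4, 24 and 27 without H730A replicates 2 and 1, and 28 to 35 without any 1 knockout library, whereas it was 67 without H730A replicate 3.

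**Figure D3:**
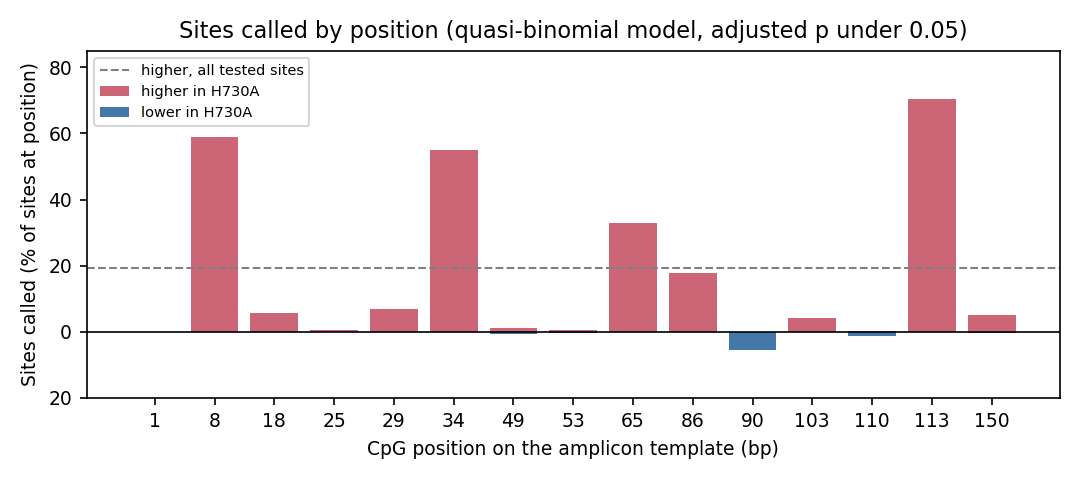
Share of tested sites (percent, at each template position) called higher in H730A (upward bars) or lower (downward bars) by the quasi-binomial model at an adjusted p under 0.05, with the share over all sites (19.3%) as a dashed line. Positions 8, 34, 65 and 113 rise above the line, and the largest downward bar is at position 90 (5.47%).

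Summed over a copy, H730A was above the knockout nearly throughout. The summed level was above the knockout in 742 of 799 copies and below it in 57, and the median copy went from 4.94% in Uhrf1 KO to 7.52% in H730A. The median difference was 2.52 points, with an interquartile range of 1.54 to 3.63. The same model on summed calls called 453 copies higher (56.7%) and 3 lower (0.375%). The libraries of the groups did not overlap in 395 copies above the knockout (49.4%) and 5 below it (0.626%). The fold over the knockout exceeded 2 in 99 copies, and the difference exceeded 10 points in 12. H730A copies also varied more among themselves, with an SD over copies of 2.75 points against 1.23 in the knockout.

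The share of copies called rose with coverage and the size of the difference did not. With copies in 4 groups of equal size from the lowest to the highest coverage, 26.5, 58.5, 57.8 and 84.0% of copies were called higher, while the median difference was 2.77, 2.88, 2.28 and 2.49 points. The 343 copies without a call therefore include 289 whose summed level was above the knockout. Without H730A replicate 3 the model called 404 copies higher and 15 lower, so the count of 3 lower copies rests on that library being present. It was 2 without H730A replicate 1 or 4 or any 1 knockout library.

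A copy could hold both directions. At least 1 higher site was called in 641 copies and at least 1 lower site in 55, of which 40 held both, and 143 copies held neither. In the 668 copies with tested sites at positions 8, 90 and 113, the summed level was above the knockout at position 113 in 665 and below it at position 90 in 519, with both in 517. The excess was also shared between the ends of a copy. Between positions 1 to 65 and the positions beyond them, the differences correlated with Pearson's r = 0.67 over 797 copies, and between positions 8 and 113 with r = 0.42 over the 668 copies. These are descriptions across copies of the same 8 libraries, and the sites of a copy share reads.

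**Figure D4:**
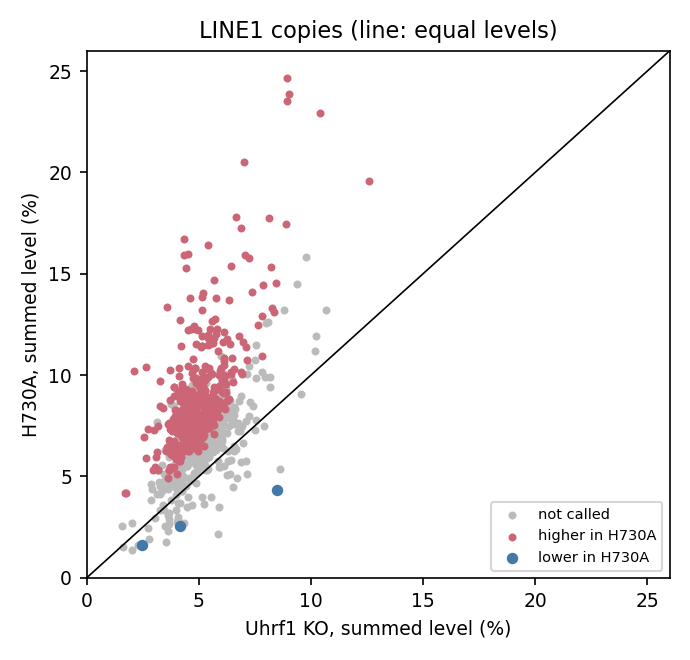
Summed methylation level (percent) of each of the 799 LINE1 copies in Uhrf1 KO (x axis) and H730A (y axis), coloured by the call of the quasi-binomial model, with the line of equal levels. Copies lie mostly above the line, 453 of them called higher, and the 3 copies called lower lie below it.

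The excess over the knockout grew with the wild-type level of a copy. Copies were ranked by their level in the wtJ1 libraries, which take no part in the comparison, and cut into 4 classes of 199 or 200. From the bottom to the top class the H730A mean was 5.62, 7.17, 7.87 and 10.2%, and the knockout mean was 4.33, 4.75, 5.28 and 5.85%. The excess thus went from 1.30 points in the lowest class to 2.42, 2.58 and 4.35 points in the others. It was larger in the highest than in the lowest class by 3.05 points (95% interval 2.39 to 3.44; exact permutation p = 0.0286, adjusted p = 0.0381 over 4 class contrasts), with no overlap between libraries. In fold the excess was 1.30 in the lowest and 1.74 in the highest class. The model called 30.0% of copies higher in the lowest class and 71.0% in the highest. Across the 799 copies the wtJ1 level correlated with the excess (r = 0.63) and with the knockout level (r = 0.62), as a description.

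The differences at single positions varied between the wild-type classes. At position 113 the excess rose from 7.66 points in the lowest class to 14.6 in the highest, and at position 8 from 5.07 to 8.56 points. At position 90 the difference was -3.11 points in the lowest class, where the groups did not overlap, and -1.74 in the highest, where they did. At position 53 it was -1.23 points in the lowest class, with H730A wholly below the knockout, and 0.888 in the highest, with overlapping groups. The change of these single positions between classes was not tested.

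The excess was present on all chromosomes with tested copies. Every H730A library lay above every knockout library on each of 20 chromosomes, with differences from 2.07 points on chromosome 8 to 2.94 on chromosome 17. Copies inside the span of an annotated gene had a slightly smaller excess than copies outside. It was 2.28 points over the 229 copies inside genes and 2.60 over the 570 outside, a difference of -0.315 points (95% interval -0.462 to -0.143; exact permutation p = 0.0286, adjusted p = 0.0381). The wtJ1 level of the same classes was 24.4 and 25.0%, and its part in this difference was not tested. On the X chromosome the 102 copies had an excess of 2.61 points against 2.49 on the autosomes. This difference of 0.123 points passed (adjusted p = 0.0381), but it was 0.0646 points with a minimum of 30 calls and 0.113 with unweighted sites, and passed in neither (exact permutation p = 0.429 and 0.400). Between strands the excess differed by -0.0201 points (95% interval -0.142 to 0.145; exact permutation p = 0.743).

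The 8 named higher copies were the largest differences among copies called by the model with no overlap between libraries. The copy at chr1:150233137-150233279, outside annotated genes, was at 11.2, 7.46, 11.7 and 5.39% in the knockout and at 29.3, 20.8, 24.1 and 24.9% in H730A. It had the largest difference of all copies, 15.7 points on summed calls (adjusted p = 4.53e-06, quasi-binomial model), and 9 of its 13 sites were called higher. At position 113 of this copy, site chr1:150233242, the knockout libraries were at 0, 1.75, 7.94 and 2.00% and the H730A libraries at 50.9, 34.9, 37.7 and 37.3%. Even position 90 was higher by its mean there (31.3% in H730A, 19.9% in the knockout), unlike in most copies, though the libraries overlapped. The other named higher copies went the same way by mean, except the one on the X chromosome (11.7% in H730A, 13.5% in the knockout). In wtJ1 the copy was at 59.1%.

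Of the named copies, 3 lie in a row on chromosome 2, outside annotated genes, each starting 945 bp after the one before. They are chr2:23938188-23938330, chr2:23939133-23939275 and chr2:23940078-23940220, with 13 tested sites each on the plus strand. Their differences were 12.5, 14.6 and 14.9 points on summed calls. The middle copy was at 8.69, 6.48, 9.55 and 10.5% in the knockout and at 26.3, 25.7, 20.4 and 22.0% in H730A (adjusted p = 1.97e-06, quasi-binomial model). The wtJ1 levels of the row were 49.4, 48.5 and 58.1%, well above the 24.8% over all tested sites. With such regular spacing reads could be placed on a neighbour, so the 3 copies may not be independent.

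The other 4 named higher copies also lie outside annotated genes. The copy at chr3:91126964-91127106 was at 5.99, 8.94, 7.38 and 6.30% in the knockout and at 19.8, 18.9, 25.7 and 16.7% in H730A. The copy at chr17:39992734-39992876 was at 3.61, 4.94, 4.70 and 4.70% and at 16.4, 13.5, 19.2 and 15.9%. Both keep a clear gap between the groups, with 9 higher sites each. The copy at chrX:81572527-81572669 was at 2.86, 6.0, 4.02 and 5.50% and at 21.7, 21.8, 13.2 and 12.9%, from as few as 179 calls in a library. The copy at chr13:72392564-72392706 was at 3.25, 4.65, 5.62 and 3.87% and at 24.2, 14.6, 15.5 and 10.4%. In the X chromosome and chromosome 13 copies the H730A libraries differed among themselves by more than 8 points, as in the named higher copies on chromosomes 1 and 3. H730A replicate 3 was not the highest in the X chromosome and chromosome 13 copies.

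Copies below the knockout were few and moderate. The copy at chr3:15028625-15028767 was at 7.90, 7.99, 7.64 and 10.5% in the knockout and at 4.98, 4.82, 4.67 and 2.76% in H730A, a difference of -4.19 points on summed calls (adjusted p = 0.00266, quasi-binomial model). Its site at position 90, chr3:15028707, went from 24.6% ± 4.98 to 9.11% ± 3.87 and its position 53 from a mean of 14.8 to 2.83%. Position 113 was at 1.85% in the knockout and 6.37% in H730A in this copy. The copy at chr10:106391417-106391542 was at 3.91, 4.47, 3.43 and 5.03% and at 2.25, 3.00, 3.08 and 1.95% (adjusted p = 0.0386), but lost its call in 5 of the 8 fits with 1 library left out (adjusted p up to 0.119). The third called copy, chr5:104893872-104894205, named after its values were seen, was at 2.30, 2.28, 2.94 and 2.40% and at 1.39, 1.35, 2.54 and 1.10%, so that H730A replicate 3 overlapped the knockout.

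**Figure D5:**
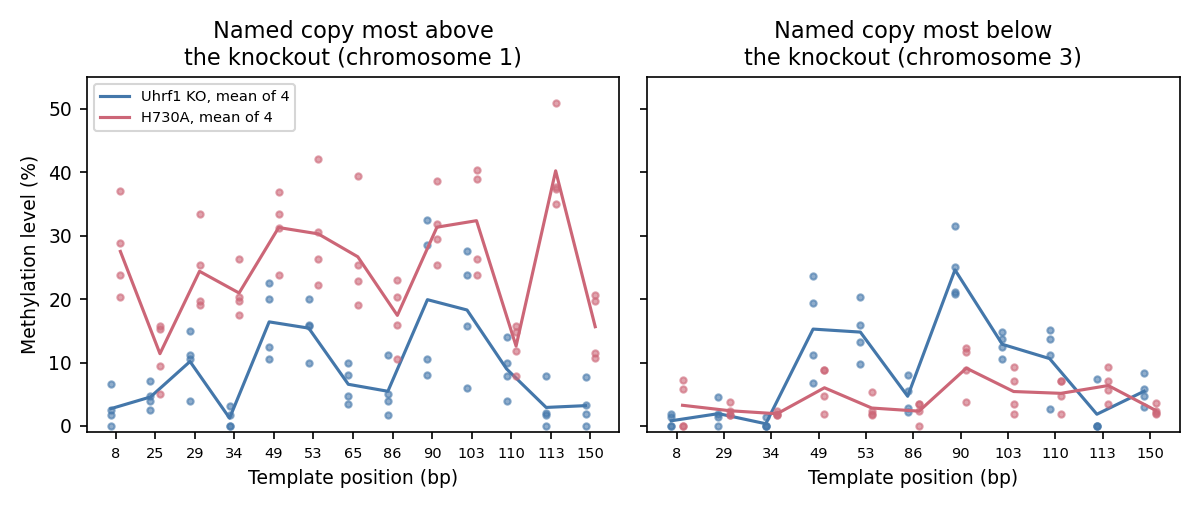
Methylation level (percent) by template position in the named copies with the largest excess over the knockout (chromosome 1, left) and the largest deficit (chromosome 3, right), with points for libraries and lines joining the means of 4. In the left copy the H730A mean lies above the knockout mean at every position, and in the right copy it lies below at positions 49, 53, 86, 90, 103, 110 and 150 and above at 8, 29, 34 and 113 (6.37 against 1.85% at 113).

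The named single sites were ranked by their difference in these same libraries, which favours positions with large differences. Where they lie on the template is therefore a description and adds no support to the results by position. Of the 12 named higher sites, 11 were at position 113 and the other, chr2:23940173, at position 103. Their differences ran from 23.8 to 37.9 points, and their wtJ1 levels from 40.7 to 80.7%. The largest was at chr2:23939238, at 6.12, 2.04, 7.04 and 5.66% in the knockout and 42.1, 38.9, 39.5 and 50.8% in H730A (adjusted p = 0.000366, quasi-binomial model). The H730A libraries were closest to each other at chrX:23535698, where the knockout was at 9.84, 16.9, 6.85 and 8.33% and H730A at 39.5, 38.9, 40.0 and 40.0%. All 12 kept their call in each of the 8 fits with 1 library left out.

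The named higher site at chr15:66058127 lies inside Kcnq3, a voltage-gated potassium channel gene, and went from 2.44, 0, 2.41 and 0% to 26.3, 26.4, 29.6 and 19.4%. The gap between the groups was wide (adjusted p = 0.000484, quasi-binomial model). Further named sites, outside genes, were chr2:23938293, chr3:91127069, chr12:62549003, chr14:79834998, chr13:3110707 and chr4:52086315, with differences of 24.1 to 35.4 points.

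All 8 named lower sites were at position 90, with differences from -15.5 to -8.38 points. Besides the site on chromosome 3 given above, 5 lie inside genes. Wdr49, a WD repeat protein gene, held chr3:75372558, at 15.2, 15.7, 22.3 and 22.0% in the knockout and 6.32, 7.89, 14.5 and 5.43% in H730A, and chr3:75415494, at 11.4, 14.04, 17.7 and 18.2%, against 8.06, 3.17, 6.78 and 8.57%. Marchf1, a membrane-bound E3 ligase gene of antigen-presenting cells, held chr8:65711387, at 12.9, 17.3, 14.3 and 8.08% and 4.84, 5.36, 5.88 and 3.39%. The gaps between the groups were narrow at these sites. Veph1 held chr3:66233135, which went from 19.3% ± 3.14 to 9.21% ± 3.59 (SD, n = 4), and Gm6351 held chr5:94046197, which went from 14.9% ± 3.48 to 4.20% ± 0.959. Outside genes, chr2:99909324 went from 16.6% ± 4.63 to 6.16% ± 2.21 and chr10:106391482 from 13.9% ± 3.98 to 2.70% ± 3.23. Every one of the 8 lost its call in at least 1 of the 8 fits with 1 library left out, and chr3:75415494 in all of them (quasi-binomial model, adjusted p = 0.0492 with all libraries and up to 0.139).

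The 229 copies inside genes lie in the spans of 185 genes. Of these copies 113 were called higher (49.3%, against 56.7% over all copies) and 0 lower (against 0.375% over all copies). A list of 45 very long genes, neuronal or at fragile sites, had 14 members with a copy. Of their 19 copies 11 were called higher (57.9%, near the 56.7% over all copies) and 0 lower. Their median difference was 2.26 points against 2.52 over all copies. The 4 with the most calls show both outcomes. Lrp1b, a lipoprotein receptor family gene, was at 5.15, 5.22, 5.03 and 4.61% in the knockout and 7.0, 7.26, 8.27 and 6.48% in H730A over 2 copies, both called. Il1rapl1, a synaptic receptor gene on the X chromosome, was at 3.84, 4.22, 3.51 and 3.58% and 6.77, 7.23, 7.55 and 6.47% over 2 copies, both called. Neither overlapped between groups.

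Csmd1, a complement-regulator family gene, was at 3.86, 4.49, 5.20 and 4.75% in the knockout and 5.96, 7.50, 7.07 and 4.97% in H730A over 2 copies, neither of them called. Fgf14, a fibroblast growth factor homologue that acts on sodium channels, was at 3.89, 3.03, 3.74 and 4.58% and 7.02, 5.11, 7.84 and 4.30% in 1 copy that was called. In both genes H730A replicate 4 lay within the knockout range. Of 47 imprinted genes only the overlapping Snrpn and Snhg14 held a copy, which was not called, at 5.55, 4.13, 4.88 and 4.20% in the knockout and 6.0, 4.76, 10.8 and 5.86% in H730A. There H730A replicate 3 stood well above the other 7 libraries.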

How the data were processed

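For each CpG and strand, the deposited files give a C count and a combined count of C and T, per the file headers, and the deposited ratio is the fraction of C. Trim Galore 0.3.1, BSMAP 2.90, methylKit and mm10 appear in the submitters' processing notes, without roles. How reads were placed among near-identical LINE1 copies is not stated in the labels or headers, and only CpG calls are listed, so conversion could not be estimated.

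Counts were used as deposited. Levels are summed methylated calls over summed calls at sites with at least 10 calls in all 8 libraries. Group levels, template positions and class contrasts were compared by exact two-sided permutation tests, with 95% intervals by inverting the test. Sites and copies were tested with a quasi-binomial model, its dispersion moderated by limma 3.58.1 (R 4.3.3) and not below 1, with Benjamini-Hochberg adjustment over all sites or copies at 0.05. The site model was tested on simulated calls drawn independently for each site and library. That simulation held no PCR duplicates, no correlated neighbouring sites and no outlying library. The median site dispersion was 1, so for many sites the p-value rests on counting error alone. The template is the commonest pattern of CpG distances (127 copies), with further positions added when at least 30 copies had them.

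Named sites had an adjusted p under 0.05, at least 30 calls per library and no overlap between groups, and were ranked by difference, 1 per copy and leaving out chromosome 18, taking 12 higher and 8 lower. Named copies needed an adjusted p under 0.05, at least 3 sites and no overlap, taking 8 higher and up to 4 lower. Host genes come from RefSeq GRCm38.p6 spans. Of each gene list the 4 members with the most calls were named. Of the named higher sites, 1 is not reported here. Members, lists and tests were chosen with earlier results of these data known. No 2 libraries were identical, and each was counted as 1 replicate. Replicate numbers were not used to pair the libraries in the main tests. The alternatives are given in the closing section. Without a genome of this build, no sequence was printed.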

Additional observations from a re-analysis of the deposited data

Results flagged for a closer look

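In groups of 4 libraries, a single library stood apart from the other 3 in 9 of the 100 groups examined. Chance alone does this in about 1 in 20 independent groups. The groups here share libraries and in part reads, so these rates cannot be compared. No explanation was tested for any of the 9. Among template positions, the highest knockout library was at 0.979% at position 34 (others 0.920 to 0.928%) and at 8.63% at position 53 (others 8.44 to 8.47%), both replicate 3 and both very small gaps. The lowest H730A library, replicate 4, was at 6.83% at position 8 (others 7.67 to 7.80%) and at 5.31% at position 34 (others 6.12 to 6.22%).

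At site chr2:23940173 knockout replicate 2 was at 28.3% (others 10.6 to 12.2%), and the copy that holds it, chr2:23940078-23940220, was at 12.6% in that library (others 7.72 to 8.51%). At site chr3:91127069 H730A replicate 3 was at 49.4% (others 32.3 to 33.3%). The copy at chr3:15028625-15028767 was at 10.5% in knockout replicate 4 (others 7.64 to 7.99%) and at 2.76% in H730A replicate 4 (others 4.67 to 4.98%). In all of these the groups of libraries still did not overlap.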

How the results depend on the processing

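The level difference was 2.32 to 2.75 points under higher coverage minimums, sites covered in all 16 libraries, removal of the deepest sites or copies, single strands and unweighted sites, and 3.15 points over sites below the minimum. Leaving out 1 library gave 2.12 to 2.82 points, where 3 against 4 cannot pass 0.05 (exact permutation p = 0.0571). In such fits the positions called went from 10 higher and 2 lower to 0 and 0, because fewer samples raise the smallest p. Of the contrasts, 3 kept their direction but could not pass, at -0.345 to -0.289 points for genes, 0.0935 to 0.143 for the X chromosome and 2.95 to 3.24 for wild-type classes, and the strand contrast, not called with all libraries, ranged from -0.0677 to 0.0158. Without 1 library, 1435 to 1829 sites were called higher and 19 to 67 lower, and 380 to 490 copies higher and 2 to 15 lower.

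With the replicate number as a block, the smallest exact p for levels, positions and class contrasts is 0.125. The level difference of 2.50 points and the contrasts of -0.315, 0.123 and 3.05 points then had that p, and 0 positions were called in either direction. Sites and copies were refitted by the quasi-binomial model with the block, to which this limit does not apply. There 0 sites were called in either direction after adjustment (2614 sites had an unadjusted p under 0.05), and 462 copies were higher and 3 lower. All 20 named sites lost their call with the block, and 1 of them, chr3:66233135, with limma on logit values, whereas the 10 named copies kept theirs in both. Over copies, same-numbered libraries deviated together with r = -0.07 to 0.07, and 3 of the 8 correlated best with their own number. Library levels, however, ranked the replicates in the same order in both genotypes. In the order 4, 1, 2 and 3 they were 4.893, 4.894, 4.956 and 5.042% in the knockout. In H730A they were 6.51, 7.21, 7.48 and 8.60%. Whether the numbers mark a shared batch was not tested.

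Sites called lower numbered 70, but 144 of 7625 with a minimum of 30 calls, 206 by Fisher's exact test with calls summed per group, which holds no spread between samples, and 124 when position 1 and off-template sites were dropped (chosen after seeing the data). Sites called higher numbered 2081 of 10805, but 2367 of 7625 with a minimum of 30 calls and 2507 of 10634 with those sites dropped. The cause of these shifts was not tested. With a minimum of 100 calls, 1962 sites and 152 copies were left, of which 873 sites and 126 copies were called higher and 96 sites and 1 copy lower. Copies called lower numbered 11 by limma on logit values and 19 by Fisher's test. In copies with the template once, 1 position was lower. The X chromosome contrast was 0.0646 points with 30 calls and 0.113 unweighted. Coverage limits which sites and copies could be called.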

Other observations

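Sites under the coverage minimum lay in no comparison above. Over these 35441 sites, with 871324 calls in the 8 libraries, the level was 4.71, 4.79, 4.80 and 4.83% in the knockout and 7.84, 7.84, 8.94 and 7.12% in H730A. The difference was 3.15 points (95% interval 2.29 to 4.23; exact permutation p = 0.0286), chosen after seeing the data, and H730A replicate 3 was again the highest library. At the 130 tested sites off the template, the difference was 2.14 points, with 23 sites called higher (17.7%, against 19.3% of all sites) and 1 lower (0.769%, against 0.648%), and H730A replicate 3 was not the highest there.

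Another 3 copies lay wholly below the knockout without a call, and were named with their values already seen. They were chr7:18453593-18453677, from 8.55% ± 1.68 to 5.21% ± 1.17, chr8:99467057-99467211 in A330008L17Rik, from 4.02% ± 0.296 to 2.83% ± 0.511, and chr10:66072980-66073122, from 4.08% ± 0.0589 to 2.81% ± 0.834 (SD, n = 4; quasi-binomial model, adjusted p = 0.150, 0.0962 and 0.0718).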
